A study of Mus musculus with 6 samples.

Results

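The genes described here encode membrane carriers for sugars, lactate and other monocarboxylates, nucleosides and nucleotide sugars, as measured in cultured mouse T cells. They were chosen by name: every probe set with 1 gene symbol in the platform annotation whose symbol belongs to the Slc2, Slc5, Slc16, Slc28, Slc29 or Slc35 family was taken, and of each gene the probe set with the highest mean log2 intensity was kept. This gave 67 genes, from 113 probe sets, among 17097 genes tested. The rule used names and mean intensity and no measured difference between the groups. It was set with earlier results of these data known. By families there were 12 Slc2, 12 Slc5, 13 Slc16, 6 Slc28 or Slc29 and 24 Slc35 genes. One symbol among the 12 Slc2 entries, Slc2a4rg-ps, is a transcribed pseudogene named after a regulator of Slc2a4 and encodes no carrier.

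The study measured RNA on 6 one-colour arrays from CD4+CD25- T cells of female C57BL/6 mice, 2 arrays for each of 3 plate coatings. The BTNL2 wells were coated with anti-CD3 at 2 µg/ml, rB7-2.Fc at 3 µg/ml and rBTNL2.Fc at 11 µg/ml. The B7-2 wells had anti-CD3 and rB7-2.Fc at the same amounts, with an IgG1 control protein in place of BTNL2. The anti-CD3 wells had the antibody without either ligand. Anti-CD3 engages the T cell receptor, B7-2 (CD86) is the ligand of CD28 and CTLA-4, and BTNL2 is a butyrophilin-like relative of the B7 proteins. All wells, the anti-CD3 wells included, were cultured for 4 days with 0.36 ng/ml TGF-beta and 10 ng/ml IL-2, so no group is of unstimulated cells. The labels give spleen in one place and spleen with lymph nodes in another. They do not say whether the 2 arrays of a coating came from separate animals, so p-values measure the spread between these arrays, which may be technical.

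Slc2 genes encode the facilitative hexose carriers known as GLUT proteins, and Slc5 genes the sodium-coupled carriers of glucose, inositol and other small solutes. Slc16 genes encode the MCT proteins, some of which move lactate and pyruvate with a proton, while Slc28 and Slc29 genes encode the concentrative and the equilibrative nucleoside transporters. Most characterised Slc35 proteins lie in the Golgi or endoplasmic reticulum and bring in the nucleotide sugars or sulphate donor from which glycans are built. Activated T cells are known for a high uptake of glucose, largely through GLUT1, and for the export of lactate.

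The median probe set intensity was 18.4 to 18.8 on the 6 arrays, and the highest nonspecific control probe set read 5.99. Log2 values correlated across genes, which are not independent replicates, at r of 0.997 to 0.998 within groups and 0.974 to 0.987 between groups. The T cell markers Cd3e, Cd3d and Cd4 were bright in all wells, with Cd4 at 1103.4 and 1159.1 in the BTNL2 wells, 1406.7 and 1319.8 in the B7-2 wells and 1704.5 and 1557.3 in the anti-CD3 wells. Between BTNL2 and B7-2 wells Cd5 (means 496.3 and 998.3) and Cd28 (601.2 and 1011.4) were called lower. Cd3e (3559.7 and 3270.1) and Cd3d (4436.1 and 4165.5) were slightly higher, and 4 of the 6 measured T cell markers were not called. Markers of the CD8 T cell or NK cell lineages, 6 in number, had summed intensities of 1436.1 to 1497.4 in the BTNL2 wells, 249.1 to 256.8 in the B7-2 wells and 576.3 to 618.8 in the anti-CD3 wells. They came mostly from Cd8a, at 986.5 and 924.1 in the BTNL2 wells, 118.9 and 106.5 in the B7-2 wells and 301.9 and 320.7 in the anti-CD3 wells. Between BTNL2 and B7-2 wells Cd8b1 (means 89.1 and 36.3), Klrd1 (210.1 and 37.4) and Klrk1 (170.1 and 32.6) were also called higher. Klrb1c (35.9 and 29.1) and the NK cell receptor gene Ncr1 were not called. Ncr1 read 4.75 to 6.62 on all arrays, near the nonspecific controls. The 5 measured of 6 B cell markers summed to 621.3 to 798.7 in the BTNL2 wells, 409.0 to 452.7 in the B7-2 wells and 675.2 to 706.1 in the anti-CD3 wells, with the B cell factor gene Pax5 at 6.33 to 8.01 throughout. They did not move together. Between BTNL2 and B7-2 wells Ms4a1 (means 332.2 and 96.6), Cd79a (104.1 and 64.8) and Cd79b (211.3 and 112.2) were called higher. Ebf1 (55.6 and 149.7) was called lower. The 7 myeloid markers were dim and alike in all groups. Their sums were 75.1 to 82.1, 75.5 to 76.5 and 74.3 to 79.8 in BTNL2, B7-2 and anti-CD3 wells. The 6 measured of 7 T cell markers summed to 12099.3 to 12142.3 in the BTNL2 wells, 12583.6 to 12932.2 in the B7-2 wells and 16401.6 to 16938.5 in the anti-CD3 wells. The 5 stromal or epithelial markers had sums in the same order, at 90.8 to 92.2, 116.1 to 133.3 and 184.3 to 194.0, but did not move together. Between BTNL2 and B7-2 wells Krt18 was lower, at means of 12.0 and 72.0, while Epcam (47.3 and 23.7) and Pecam1 (18.1 and 13.5) were higher, and the collagen gene Col1a2 read 4.56 to 5.38 on all arrays. The order of the T cell marker sums was also that of the group means of the called members Slc2a3, Slc2a8, Slc5a10, Slc16a3, Slc16a10, Slc35a2, Slc35d2 and Slc35f5. The order of the CD8 T cell or NK cell marker sums was that of the called members Slc2a6, Slc16a5, Slc28a2, Slc35a5 and Slc35b4. The ratio of the 3′ to the 5′ Gapdh control probe sets was 1.40 and 1.43 on the BTNL2 arrays, against 1.27 to 1.37 on the other 4 arrays, and the 18S rRNA control read 682.8 on the second anti-CD3 array, against 1308.4 to 2018.7 on the other 5. The part of these differences in the transporter results was not tested, and in bulk RNA fewer cells of a type cannot be told apart from less RNA per cell.

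Across the 67 genes, the BTNL2 wells differed from the B7-2 wells in 17, with 8 higher and 9 lower, at a limma adjusted p under 0.05 over all genes tested. This was 25.4% of the members, where 20.4% of all genes were called, 9.52% of all genes being higher and 10.8% lower. Of the 67 members, 7 were called with a change of at least 2-fold, where 5.19% of all genes were. These were Slc2a6 and Slc35b4, higher, and Slc35d3, Slc2a3, Slc16a3, Slc2a8 and Slc16a10, lower. Between B7-2 and anti-CD3 wells 23 members were called, 11 higher and 12 lower (34.3%), where 24.5% of all genes were called, 11.2% higher and 13.3% lower. A called change of at least 2-fold was seen in 3 of the 67, where 3.88% of all genes had one. The 3 were Slc2a6, Slc2a9 and Slc35f5, all lower with B7-2. Between BTNL2 and anti-CD3 wells 28 members were called, 16 higher and 12 lower (41.8%), where 30.4% of all genes were called, 14.2% higher and 16.2% lower. In this comparison 6 of the 67 were called with a change of at least 2-fold, all lower with BTNL2, where 7.15% of all genes were. The members' median log2 change was 0.00, 0.03 and 0.00 in the order of these comparisons, against -0.01, 0.00 and 0.00 over all genes. The comparisons share groups of arrays and are not independent of each other.

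In all, 34 members were called in at least 1 comparison and 33 in none. The like share over all genes was not computed, so these 2 numbers set the members apart in no way. Each single comparison called 20.4% to 30.4% of all genes. Leaving out 1 array of a compared group, which then rests on its other array, lowered the number of members called in that comparison. In BTNL2 against B7-2 wells 11 members were called without the second B7-2 array or without the first BTNL2 array, in place of 17. Between B7-2 and anti-CD3 wells there were 12 without the first anti-CD3, the second anti-CD3 or the second B7-2 array and 14 without the first B7-2 array, in place of 23. In BTNL2 against anti-CD3 wells there were 18 without the first and 16 without the second anti-CD3 array, in place of 28. Of the members, 44 lay above the 40th percentile of mean log2 intensity over all probe sets, and Slc16a12, Slc16a14 and Slc35f3 did not exceed the highest nonspecific control on any array.

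**Figure D1:**
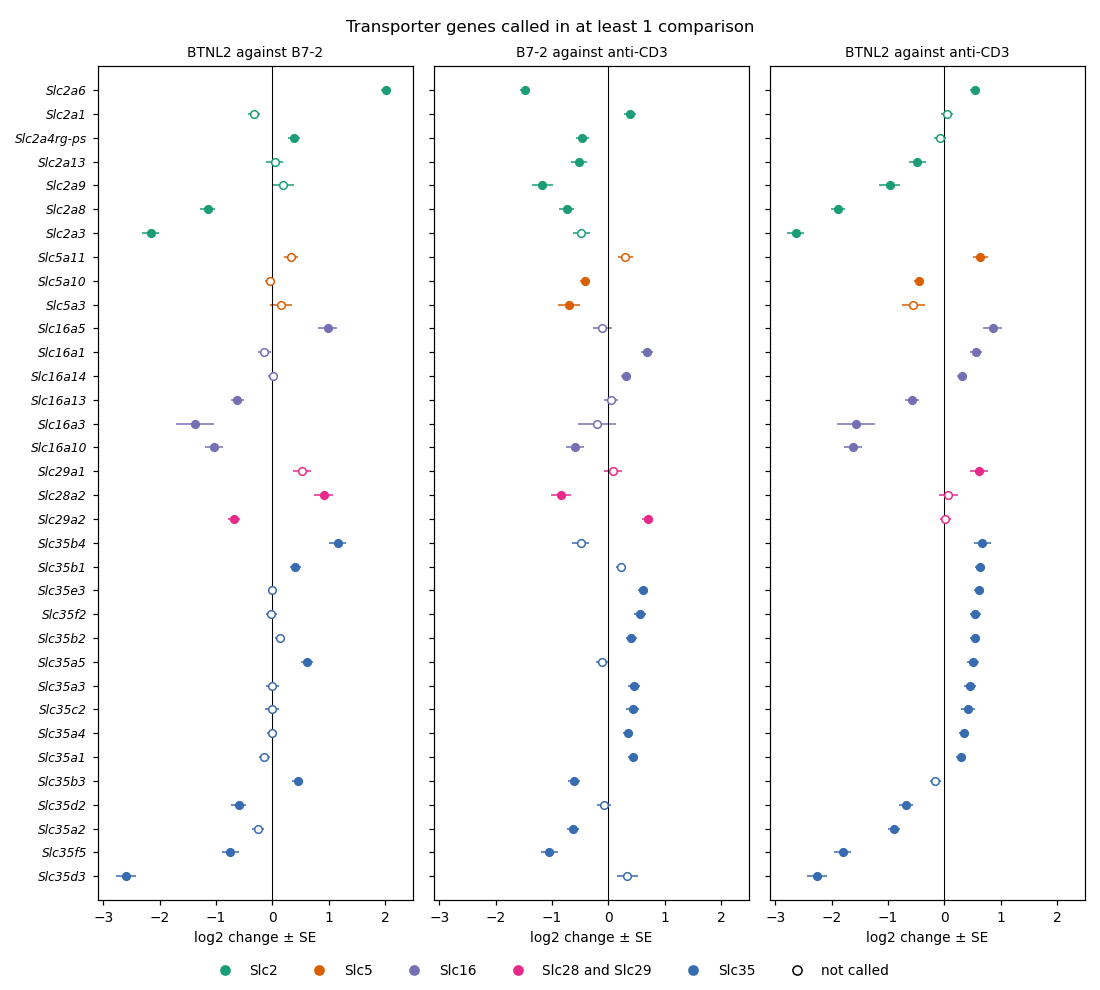
Log2 change ± SE of the 34 members called in at least 1 comparison, by family, in BTNL2 against B7-2, B7-2 against anti-CD3 and BTNL2 against anti-CD3 wells (2 arrays a group; filled points, adjusted p under 0.05). Slc2a6 lies at 2.02, -1.48 and 0.54 in the 3 panels, and Slc2a3 at -2.16, -0.48 and -2.64.

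The promoters of the members that changed at least 2-fold between BTNL2 and B7-2 wells are shown because these genes carry the members' largest differences in that comparison. RefSeq promoter sequences of build GRCm38.p6 matched 54 of the 67 members, with 67 start sites, and 6 of these 7 genes. Each sequence is the 250 bases before the annotated start, written 5′ to 3′ on the gene's strand. They lie at chr2:27027999-27028248 on the minus strand (Slc2a6), chr2:32982084-32982333 on the minus strand (Slc2a8), chr11:120948817-120949066 on the plus strand (Slc16a3), chr10:40142255-40142504 on the minus strand (Slc16a10), chr6:34177055-34177304 on the minus strand (Slc35b4) and chr10:19851460-19851709 on the minus strand (Slc35d3). Capitals mark ACGTG or GCGTG, the core of the hypoxia response element, on either strand, and in the promoter of Slc35b4 also TTCNNNGAA, the gamma-activated sequence.
Slc2a6: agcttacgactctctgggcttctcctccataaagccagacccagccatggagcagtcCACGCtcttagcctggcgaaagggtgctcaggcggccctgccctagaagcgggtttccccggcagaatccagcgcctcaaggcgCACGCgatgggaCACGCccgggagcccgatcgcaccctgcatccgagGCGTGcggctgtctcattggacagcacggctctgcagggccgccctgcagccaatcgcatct
Slc2a8: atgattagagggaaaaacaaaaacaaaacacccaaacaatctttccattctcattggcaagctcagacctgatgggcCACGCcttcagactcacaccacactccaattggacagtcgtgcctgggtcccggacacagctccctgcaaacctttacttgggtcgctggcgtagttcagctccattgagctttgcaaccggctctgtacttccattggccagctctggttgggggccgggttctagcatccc
Slc16a3: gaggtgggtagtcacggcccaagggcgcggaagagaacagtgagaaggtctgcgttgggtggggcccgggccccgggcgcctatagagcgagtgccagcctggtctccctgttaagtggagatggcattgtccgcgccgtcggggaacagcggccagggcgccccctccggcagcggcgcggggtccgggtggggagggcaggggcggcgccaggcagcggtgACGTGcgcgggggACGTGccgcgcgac
Slc16a10: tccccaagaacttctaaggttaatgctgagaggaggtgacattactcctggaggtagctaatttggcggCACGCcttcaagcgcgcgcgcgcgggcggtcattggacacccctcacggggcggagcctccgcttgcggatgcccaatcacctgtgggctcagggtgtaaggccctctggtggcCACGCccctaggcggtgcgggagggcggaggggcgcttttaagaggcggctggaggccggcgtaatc
Slc35b4: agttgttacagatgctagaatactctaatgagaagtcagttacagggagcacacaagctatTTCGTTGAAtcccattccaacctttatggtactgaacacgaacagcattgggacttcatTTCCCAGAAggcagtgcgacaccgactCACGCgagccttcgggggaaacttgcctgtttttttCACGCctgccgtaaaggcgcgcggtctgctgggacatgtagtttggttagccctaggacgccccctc
Slc35d3: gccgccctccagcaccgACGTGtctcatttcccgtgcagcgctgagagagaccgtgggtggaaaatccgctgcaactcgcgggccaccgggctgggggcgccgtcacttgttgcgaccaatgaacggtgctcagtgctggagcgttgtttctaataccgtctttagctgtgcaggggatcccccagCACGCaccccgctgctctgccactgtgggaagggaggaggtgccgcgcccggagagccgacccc
The hypoxia element core occurred 4 times before Slc2a6, 1 time before Slc2a8 and 2 times before each of Slc16a3, Slc16a10, Slc35b4 and Slc35d3. Before Slc16a3 it lay within 27 bases of the start. These letters are common: 38.6% of 32851 promoters of the same length held them. So did 33 of the 67 promoters of members, which belong to 28 of the 54 genes. TTCNNNGAA occurred 2 times before Slc35b4, and was held by 7.02% of all promoters and by 3 of the 67 promoters of members. The E-box CACGTG, which overlaps ACGTG, was held by 6.02% of all promoters and by 6 of the 67 promoters of members. It was in none of the 6 promoters shown. The core of the interferon-stimulated response element was held by 2.98% of all promoters and by 0 of the members'. Motifs were searched on both strands, and a match describes the letters only.

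The GLUT genes of the Slc2 family held some of the largest differences, and these ran in opposite directions. Slc2a3 and Slc2a8 were lower in the BTNL2 wells than in the B7-2 wells and Slc2a6 was higher. Of the 12 Slc2 entries, 2 were higher and 2 lower in this comparison, 1 was higher and 5 lower in B7-2 against anti-CD3 wells, and 1 was higher and 4 lower in BTNL2 against anti-CD3 wells. Slc2a3 (GLUT3), a high-affinity glucose carrier of neurons and leukocytes, read 563.3 and 787.4 in the BTNL2 wells, 2916.1 and 3024.7 in the B7-2 wells and 4163.9 and 4132.0 in the anti-CD3 wells. Both BTNL2 arrays lay far below the others and no groups overlapped. The gene was 4.46-fold lower in BTNL2 than in B7-2 wells (log2 change -2.16 ± 0.15 SE, adjusted p = 0.000135) and 6.23-fold lower than in anti-CD3 wells (-2.64 ± 0.15, adjusted p = 5.05e-05). Between B7-2 and anti-CD3 wells its log2 change was -0.48 ± 0.15 (adjusted p = 0.0617). It passed the threshold with the variance prior following intensity (adjusted p = 0.00251), with the mean of its probe sets (-0.56, adjusted p = 0.00713) and in 5 other alternatives, among them those that left out either BTNL2 array (adjusted p = 0.0116). Its other bright probe set gave -2.23 in BTNL2 against B7-2 wells, and its 2 dim ones -1.04 and -0.72.

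Slc2a1 (GLUT1), the main glucose carrier of activated T cells, had another order of groups. It read 3012.6 and 3516.7 in the BTNL2 wells, 3948.4 and 4247.6 in the B7-2 wells and 3311.6 and 2996.7 in the anti-CD3 wells. The B7-2 arrays were the highest, and the BTNL2 arrays overlapped the anti-CD3 arrays. The call with B7-2 against anti-CD3 lay at the threshold (log2 change 0.38 ± 0.11, adjusted p = 0.0483) and was lost in 8 of 15 alternatives. Among these were the 4 without 1 array of these groups, where adjusted p was 0.0918 and 0.213 without the first and second anti-CD3 array and 0.0996 and 0.187 without the first and second B7-2 array. The change in BTNL2 against B7-2 wells was -0.33 ± 0.11 (adjusted p = 0.0838; 0.00213 with the variance prior following intensity and 0.0481 with the mean of its probe sets), and in BTNL2 against anti-CD3 wells 0.05 ± 0.11 (adjusted p = 0.806). Its other probe set, tested by itself among all probe sets, was lower in BTNL2 than in B7-2 wells (-0.41 ± 0.11, adjusted p = 0.0476) and higher in B7-2 than in anti-CD3 wells (0.54 ± 0.11, adjusted p = 0.0141).

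Slc2a6 (GLUT6), a carrier of intracellular, lysosomal membranes, showed the reverse order between the wells with B7-2. It read 254.9 and 272.1 in the BTNL2 wells, 66.1 and 64.3 in the B7-2 wells and 179.6 and 182.7 in the anti-CD3 wells, so that the B7-2 wells were lowest, and no arrays overlapped. It was 4.04-fold higher in BTNL2 than in B7-2 wells (log2 change 2.02 ± 0.09, adjusted p = 2.19e-05), 2.78-fold lower in B7-2 than in anti-CD3 wells (-1.48 ± 0.09, adjusted p = 0.00018) and 1.45-fold higher in BTNL2 than in anti-CD3 wells (0.54 ± 0.09, adjusted p = 0.00318). The summed CD8 T cell and NK cell markers had the same order of groups, and their part in this result was not tested.

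Slc2a8 (GLUT8), another intracellular hexose carrier, fell in steps. Its intensities were 33.1 and 41.9 in the BTNL2 wells, 78.8 and 87.0 in the B7-2 wells and 138.7 and 138.0 in the anti-CD3 wells, without overlap. The fold differences were 2.22 lower in BTNL2 than in B7-2 wells (log2 change -1.15 ± 0.13, adjusted p = 0.000961) and 1.67 lower in B7-2 than in anti-CD3 wells (-0.74 ± 0.13, adjusted p = 0.00622), which gave 3.71 lower in BTNL2 than in anti-CD3 wells (-1.89 ± 0.13, adjusted p = 8.39e-05). Slc2a9 (GLUT9), a urate carrier, differed between anti-CD3 wells and the rest. It read 42.2 and 30.2 in the BTNL2 wells, 30.6 and 31.8 in the B7-2 wells and 60.8 and 80.5 in the anti-CD3 wells. It was 2.24-fold lower in B7-2 than in anti-CD3 wells (log2 change -1.17 ± 0.19, adjusted p = 0.00476), while BTNL2 and B7-2 arrays overlapped (0.19 ± 0.19, adjusted p = 0.549). The calls named so far for Slc2a3, Slc2a6, Slc2a8 and Slc2a9 held in all 15 alternatives.

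The remaining Slc2 members were dim or changed little. Slc2a13, the proton-coupled inositol carrier HMIT, read 4.95 to 8.50 on all arrays, close to the nonspecific controls, and its lower signal in B7-2 than in anti-CD3 wells (log2 change -0.52 ± 0.15, adjusted p = 0.0396) was lost in 7 of 14 alternatives, among them those without each array but the second B7-2 array (adjusted p 0.0545 to 0.17 among the 7). The pseudogene Slc2a4rg-ps read 49.6 and 55.2 in the BTNL2 wells, 42.7 and 37.9 in the B7-2 wells and 58.2 and 52.8 in the anti-CD3 wells. Its higher signal in BTNL2 than in B7-2 wells (0.38 ± 0.11, adjusted p = 0.0496) kept its call in 3 of 15 alternatives, with an adjusted p of 0.0334 to 0.212 over all of them, and was lost without any 1 of the 6 arrays. The other 5 Slc2 genes were called in no comparison.

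**Figure D2:**
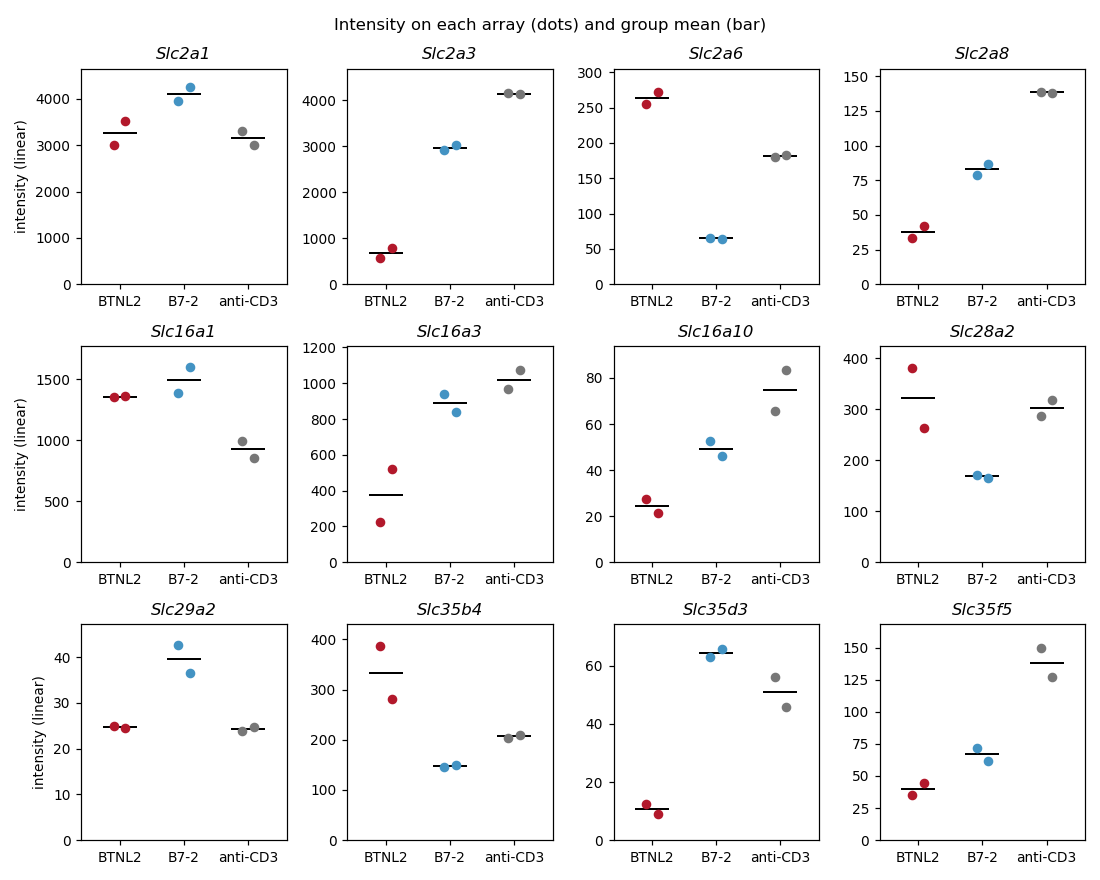
Intensity (linear, from 0) of 12 transporter genes on each array (dots) with the group mean of 2 arrays (bars), for BTNL2, B7-2 and anti-CD3 wells. Slc2a3 lies at 563.3 and 787.4 in the BTNL2 wells, below all other arrays, while Slc2a6 and Slc28a2 are lowest in the B7-2 wells.

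The sodium-coupled Slc5 family had few calls. By limma, 0 of its 12 members were called in BTNL2 against B7-2 wells (1 higher and 1 lower at an unadjusted p under 0.05), where log2 changes ran from -0.27 to 0.33. In the comparisons with anti-CD3, 2 were lower in B7-2 than in anti-CD3 wells, and 1 was higher and 1 lower in BTNL2 than in anti-CD3 wells. These were 0.0%, 16.7% and 16.7% of the family, where 20.4%, 24.5% and 30.4% of all genes were called. Only 4 of the 12 lay above the 40th percentile of intensity, and the part of intensity in these shares was not tested. Slc5a3 (SMIT1), the sodium-coupled myo-inositol carrier, read 8.81 and 8.78 in the BTNL2 wells, 9.15 and 6.84 in the B7-2 wells and 15.4 and 10.8 in the anti-CD3 wells. The anti-CD3 arrays were higher than the rest, but all arrays were dim. It was 1.63-fold lower in B7-2 than in anti-CD3 wells (log2 change -0.70 ± 0.20, adjusted p = 0.0394). The call was lost without the first anti-CD3 array (-0.44, adjusted p = 0.183), without the second B7-2 array (-0.49, adjusted p = 0.174) and with the 4 arrays of these groups alone or with either BTNL2 array left out (adjusted p = 0.0647). In BTNL2 against B7-2 wells its change was 0.15 ± 0.20 (adjusted p = 0.66), and in BTNL2 against anti-CD3 wells -0.55 ± 0.20 (adjusted p = 0.0775). The change against anti-CD3 passed the threshold with the variance prior following intensity (adjusted p = 0.0297), with the replicate number as a block (adjusted p = 0.0289) and without the second anti-CD3 array (-0.81, adjusted p = 0.0273).

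Slc5a11 (SMIT2), a second inositol carrier, was the Slc5 member that was higher in BTNL2 than in anti-CD3 wells. It read 37.9 and 30.6 in the BTNL2 wells, 28.8 and 25.3 in the B7-2 wells and 23.2 and 20.7 in the anti-CD3 wells, with no overlap between any groups. The change was 1.55-fold (log2 change 0.64 ± 0.13, adjusted p = 0.0102), and the call was lost without the first BTNL2 array (0.48, adjusted p = 0.0529) or the second anti-CD3 array (0.55, adjusted p = 0.0675). Slc5a10, named here after its values were seen, was the second called member and was highest in the anti-CD3 wells, at 21.7 and 20.3, 21.8 and 21.4, and 28.3 and 29.2 in BTNL2, B7-2 and anti-CD3 wells (log2 change -0.41 ± 0.09, adjusted p = 0.0139, in B7-2 against anti-CD3 wells and -0.45 ± 0.09, adjusted p = 0.00699, in BTNL2 against anti-CD3 wells).

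Among the Slc16 genes, the lactate exporter gene Slc16a3 and the aromatic amino acid carrier gene Slc16a10 were lower in the BTNL2 wells, while Slc16a1 was higher in both kinds of wells with B7-2 than in anti-CD3 wells. Of the 13 members, 1 was higher and 3 lower in BTNL2 than in B7-2 wells, and 2 were higher and 1 lower in B7-2 than in anti-CD3 wells. In BTNL2 against anti-CD3 wells 3 were higher and 3 lower. These were 30.8%, 23.1% and 46.2% of the family, where 20.4%, 24.5% and 30.4% of all genes were called. Slc16a3 (MCT4), the lactate exporter of glycolytic cells, read 226.5 and 522.5 in the BTNL2 wells, 938.5 and 841.2 in the B7-2 wells and 965.2 and 1073.8 in the anti-CD3 wells. Both BTNL2 arrays were below all others, but they differed from each other by more than any other pair of this gene. It was 2.58-fold lower in BTNL2 than in B7-2 wells (log2 change -1.37 ± 0.34, adjusted p = 0.0293) and 2.96-fold lower than in anti-CD3 wells (-1.57 ± 0.34, adjusted p = 0.0115). The first change was -0.77 without the first BTNL2 array and -1.97 without the second. It lost its call without the first or the second B7-2 array (adjusted p 0.117 and 0.0797), and with either anti-CD3 array or both left out (adjusted p = 0.0518). The second was -0.96 and -2.17 without the first and the second BTNL2 array, and lost its call without the second anti-CD3 array (adjusted p = 0.064). Between B7-2 and anti-CD3 wells its change was -0.20 ± 0.34 (adjusted p = 0.742).

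Slc16a1 (MCT1), which carries lactate and pyruvate in either direction, read 1354.7 and 1359.3 in the BTNL2 wells, 1389.2 and 1599.1 in the B7-2 wells and 994.5 and 857.5 in the anti-CD3 wells. Both anti-CD3 arrays were below the other 4. It was 1.61-fold higher in B7-2 than in anti-CD3 wells (log2 change 0.69 ± 0.11, adjusted p = 0.00513) and 1.47-fold higher in BTNL2 than in anti-CD3 wells (0.56 ± 0.11, adjusted p = 0.0092). The second call was lost without the second anti-CD3 array (0.45, adjusted p = 0.061). In BTNL2 against B7-2 wells the change was -0.14 ± 0.11 (adjusted p = 0.477), and averaging its probe sets gave -0.42 (adjusted p = 0.0298).

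Slc16a10 (TAT1), a carrier of aromatic amino acids rather than of monocarboxylates, fell in steps. It read 27.4 and 21.3 in the BTNL2 wells, 52.5 and 46.0 in the B7-2 wells and 65.6 and 83.6 in the anti-CD3 wells, without overlap. The gene was 2.04-fold lower in BTNL2 than in B7-2 wells (log2 change -1.03 ± 0.16, adjusted p = 0.00519), 1.51-fold lower in B7-2 than in anti-CD3 wells (-0.59 ± 0.16, adjusted p = 0.0396) and 3.07-fold lower in BTNL2 than in anti-CD3 wells (-1.62 ± 0.16, adjusted p = 0.000459). The call in B7-2 against anti-CD3 wells was lost without the second anti-CD3 array (-0.42, adjusted p = 0.192) and without the first or the second B7-2 array (adjusted p 0.0735 and 0.164), and with the replicate number as a block (adjusted p = 0.0536).

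Slc16a5 (MCT6), whose human protein carries the diuretic bumetanide, read 24.7 and 20.9 in the BTNL2 wells, 9.97 and 13.4 in the B7-2 wells and 13.7 and 11.4 in the anti-CD3 wells. The BTNL2 arrays stood above the other 4, 1.97-fold against B7-2 (log2 change 0.98 ± 0.17, adjusted p = 0.00722) and 1.82-fold against anti-CD3 (0.86 ± 0.17, adjusted p = 0.00775). Without the first BTNL2 array the adjusted p was 0.0523 and 0.052, and without the second anti-CD3 array it was 0.0533 against anti-CD3. The group means had the order of the summed CD8 T cell and NK cell markers, whose part was not tested. Slc16a13, a lesser-known family member, went the other way, at 70.0 and 85.5 in the BTNL2 wells, 122.5 and 115.4 in the B7-2 wells and 117.5 and 112.6 in the anti-CD3 wells. Its log2 change was -0.62 ± 0.12 against B7-2 (adjusted p = 0.00996; 0.0581 without the first B7-2 array) and -0.57 ± 0.12 against anti-CD3 (adjusted p = 0.00891; 0.055 without the first anti-CD3 array). The second Slc16 member higher in B7-2 than in anti-CD3 wells was Slc16a14, named after its values were seen, which stayed under the highest nonspecific control on all arrays. The other 7 Slc16 genes were called in no comparison.

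Among the nucleoside carriers, Slc28a2 was lowest and Slc29a2 highest in the B7-2 wells. Of the 6 genes, 1 was higher and 1 lower in BTNL2 than in B7-2 wells, and 1 was higher and 1 lower in B7-2 than in anti-CD3 wells. In BTNL2 against anti-CD3 wells 1 was higher. These were 33.3%, 33.3% and 16.7% of the genes, where 20.4%, 24.5% and 30.4% of all genes were called. Slc28a2 (CNT2), the sodium-coupled purine nucleoside carrier, read 380.7 and 262.2 in the BTNL2 wells, 171.9 and 165.3 in the B7-2 wells and 286.3 and 318.1 in the anti-CD3 wells. The B7-2 arrays were lowest, and the BTNL2 arrays overlapped the anti-CD3 arrays. It was 1.87-fold higher in BTNL2 than in B7-2 wells (log2 change 0.91 ± 0.17, adjusted p = 0.0102) and 1.79-fold lower in B7-2 than in anti-CD3 wells (-0.84 ± 0.17, adjusted p = 0.012), with 0.07 ± 0.17 in BTNL2 against anti-CD3 wells (adjusted p = 0.824). Without the second B7-2 array the first 2 calls were lost (adjusted p 0.0502 and 0.0582), and without the second anti-CD3 array so was the call in B7-2 against anti-CD3 wells (adjusted p = 0.0716). Its group means had the order of the summed CD8 T cell and NK cell markers, whose part in the result was not tested.

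Slc29a2 (ENT2), an equilibrative carrier of nucleosides and nucleobases, read 24.9 and 24.4 in the BTNL2 wells, 42.7 and 36.5 in the B7-2 wells and 23.8 and 24.7 in the anti-CD3 wells. The B7-2 arrays stood above the other 4. It was 1.6-fold lower in BTNL2 than in B7-2 wells (log2 change -0.68 ± 0.10, adjusted p = 0.00417) and 1.63-fold higher in B7-2 than in anti-CD3 wells (0.70 ± 0.10, adjusted p = 0.00337), and both calls held in all 15 alternatives. Slc29a1 (ENT1), the adenosine carrier of most cells, read 90.4 and 72.3 in the BTNL2 wells, 63.3 and 50.2 in the B7-2 wells and 49.2 and 57.3 in the anti-CD3 wells. It was 1.52-fold higher in BTNL2 than in anti-CD3 wells (0.61 ± 0.16, adjusted p = 0.0262). The call was lost without the first BTNL2 array or without the first or second anti-CD3 array (adjusted p 0.136, 0.139 and 0.0507). In BTNL2 against B7-2 wells its change was 0.52 ± 0.16 (adjusted p = 0.0624; 0.0275 with the variance prior following intensity and 0.0492 with dim genes left out) and in B7-2 against anti-CD3 wells 0.09 ± 0.16 (adjusted p = 0.763). The other 3 genes of these families were called in no comparison.

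The Slc35 family is the largest, and most of its calls were of small changes. Of its 24 genes, of which 21 lay above the 40th percentile of intensity, 4 were higher and 3 lower in BTNL2 than in B7-2 wells, 7 were higher and 3 lower in B7-2 than in anti-CD3 wells, and 10 were higher and 4 lower in BTNL2 than in anti-CD3 wells. These were 29.2%, 41.7% and 58.3% of the family, where 20.4%, 24.5% and 30.4% of all genes were called. Of the 12 Slc2 entries, 4, 6 and 5 were called in the same comparisons, but only 6 of the 12 lay above the 40th percentile. The part of intensity in these family shares was not tested. Changes of at least 2-fold were seen only in Slc35d3, Slc35b4 and Slc35f5. Slc35d3, whose loss in mice impairs the dense granules of platelets, read 12.6 and 8.92 in the BTNL2 wells, 62.9 and 65.9 in the B7-2 wells and 56.2 and 45.9 in the anti-CD3 wells. The BTNL2 arrays were far below the rest. They were 6.07-fold below B7-2 (log2 change -2.60 ± 0.18, adjusted p = 0.000109) and 4.79-fold below anti-CD3 (-2.26 ± 0.18, adjusted p = 0.000146), the largest fall of any member against B7-2. Its change between B7-2 and anti-CD3 wells was 0.34 ± 0.18 (adjusted p = 0.219).

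Slc35b4, a carrier of UDP-xylose and UDP-N-acetylglucosamine, had the second largest rise of any member in BTNL2 against B7-2 wells, after Slc2a6. It read 385.8 and 281.5 in the BTNL2 wells, 144.8 and 149.3 in the B7-2 wells and 203.5 and 209.9 in the anti-CD3 wells, with no overlap. The gene was 2.24-fold higher in BTNL2 than in B7-2 wells (log2 change 1.16 ± 0.15, adjusted p = 0.00178) and 1.59-fold higher than in anti-CD3 wells (0.67 ± 0.15, adjusted p = 0.0123). The call against anti-CD3 was lost without the first or the second anti-CD3 array (adjusted p 0.0655 and 0.0534). The change in B7-2 against anti-CD3 wells was -0.49 ± 0.15 (adjusted p = 0.0508). Its order of groups was that of the summed CD8 T cell and NK cell markers, whose part in it was not tested. Slc35f5, an orphan member, fell in steps, at 35.4 and 44.2 in the BTNL2 wells, 71.9 and 61.7 in the B7-2 wells and 149.9 and 126.8 in the anti-CD3 wells. It was 1.68-fold lower in BTNL2 than in B7-2 wells (log2 change -0.75 ± 0.15, adjusted p = 0.0119; 0.0665 without the first BTNL2 array and 0.0691 without the first B7-2 array), 2.07-fold lower in B7-2 than in anti-CD3 wells (-1.05 ± 0.15, adjusted p = 0.00276) and 3.49-fold lower in BTNL2 than in anti-CD3 wells (-1.80 ± 0.15, adjusted p = 0.00018).

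**Figure D3:**
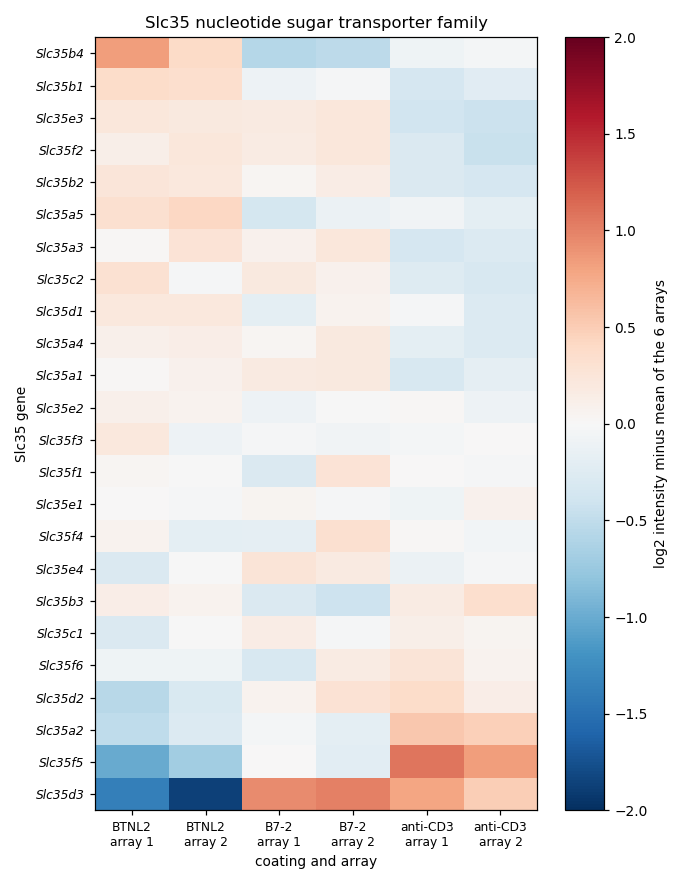
Heat map of the 24 Slc35 genes (rows) on the 6 arrays (columns, in the order BTNL2, B7-2, anti-CD3), coloured by log2 intensity minus the gene's mean over the 6 arrays, on a scale from -2 to 2. Slc35d3 is lowest on both BTNL2 arrays, Slc35b4 is highest there, and Slc35f5 is highest on both anti-CD3 arrays.

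Genes for the carriers of single nucleotide sugars moved in either direction. Slc35a1, which brings CMP-sialic acid into the Golgi, read 56.9 and 59.5 in the BTNL2 wells, 63.9 and 64.5 in the B7-2 wells and 45.2 and 49.7 in the anti-CD3 wells, and the anti-CD3 arrays were the lowest. It was 1.35-fold higher in B7-2 than in anti-CD3 wells (log2 change 0.44 ± 0.09, adjusted p = 0.0136). The call was lost without the first anti-CD3 array (adjusted p = 0.0879) or without the first or second B7-2 array (adjusted p 0.0597 and 0.0656). The call in BTNL2 against anti-CD3 wells (0.30 ± 0.09, adjusted p = 0.048) held in 4 of 15 alternatives and in none without 1 of the 6 arrays (adjusted p 0.0275 to 0.229 over all alternatives). Against B7-2 the change in BTNL2 wells was -0.14 ± 0.09 (adjusted p = 0.351). Slc35a2, the UDP-galactose carrier gene, was highest in the anti-CD3 wells, at 41.9 and 49.3, 57.4 and 51.6, and 86.2 and 82.2 in BTNL2, B7-2 and anti-CD3 wells. It was 1.55-fold lower in B7-2 than in anti-CD3 wells (-0.63 ± 0.11, adjusted p = 0.00703; -0.32 with the mean of its probe sets) and 1.85-fold lower in BTNL2 than in anti-CD3 wells (-0.89 ± 0.11, adjusted p = 0.0011). In BTNL2 against B7-2 wells its change was -0.26 ± 0.11 (adjusted p = 0.16). Its other probe sets, tested by themselves, gave -0.91 (adjusted p = 0.0028), -0.40 (0.0236), -0.35 (0.159) and 0.09 (0.573) there. The probe set at -0.40 gave 0.13 (adjusted p = 0.41) in B7-2 against anti-CD3 wells. Slc35a3, the UDP-N-acetylglucosamine carrier gene, was 1.38-fold higher in B7-2 than in anti-CD3 wells (0.46 ± 0.11, adjusted p = 0.0266) by its brightest probe set. Averaging its probe sets gave 0.24 (adjusted p = 0.0965), and the call was lost without any 1 array of these groups (adjusted p 0.0559 and 0.128 without the first and second B7-2 array and 0.126 and 0.0855 without the first and second anti-CD3 array).

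Slc35d1, which carries UDP-glucuronic acid and UDP-N-acetylgalactosamine into the endoplasmic reticulum, was called in no comparison, at 91.2 and 90.8 in the BTNL2 wells, 69.0 and 82.5 in the B7-2 wells and 77.0 and 65.0 in the anti-CD3 wells. Slc35d2, a carrier of UDP-N-acetylglucosamine, read 149.5 and 176.2 in the BTNL2 wells, 229.2 and 265.7 in the B7-2 wells and 281.9 and 240.2 in the anti-CD3 wells, so that the BTNL2 arrays were lowest. It was 1.52-fold lower in BTNL2 than in B7-2 wells (log2 change -0.60 ± 0.13, adjusted p = 0.0191; 0.105 without the first BTNL2 array and 0.0955 without the second B7-2 array) and 1.6-fold lower than in anti-CD3 wells (-0.68 ± 0.13, adjusted p = 0.00754; 0.052 without the first anti-CD3 array). Slc35a5, a less characterised relative of these carriers, was 1.53-fold higher in BTNL2 than in B7-2 wells (0.62 ± 0.11, adjusted p = 0.00876). Averaging its probe sets gave 0.24 (adjusted p = 0.0962). Slc35c1, the GDP-fucose carrier gene, named after its values were seen, was called in no comparison. Slc35c2, which has been tied to the fucosylation of Notch, was 1.35-fold higher in B7-2 than in anti-CD3 wells (0.43 ± 0.12, adjusted p = 0.043). The call was lost without any 1 array of these groups (adjusted p 0.173 and 0.0944 without the first and second B7-2 array and 0.125 and 0.165 without the first and second anti-CD3 array).

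Slc35b1, whose human protein exchanges ATP and ADP across the membrane of the endoplasmic reticulum, was highest in the BTNL2 wells. It read 1334.2 and 1311.8 there, 965.2 and 1022.0 in the B7-2 wells and 826.6 and 883.8 in the anti-CD3 wells, with no overlap. The rise was 1.33-fold against B7-2 (log2 change 0.41 ± 0.09, adjusted p = 0.0174) and 1.55-fold against anti-CD3 (0.63 ± 0.09, adjusted p = 0.00181). The call against B7-2 was lost without the first or second BTNL2 array (adjusted p 0.0782 and 0.0552) or the first or second B7-2 array (adjusted p 0.0976 and 0.0519). The change between B7-2 and anti-CD3 wells was 0.22 ± 0.09 (adjusted p = 0.131; 0.0193 with the variance prior following intensity).

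The carriers of the sulphate donor PAPS, Slc35b2 and Slc35b3, differed in direction in B7-2 against anti-CD3 wells, by the brightest probe set of each. Slc35b2 read 425.0 and 417.6 in the BTNL2 wells, 371.3 and 400.0 in the B7-2 wells and 293.8 and 284.9 in the anti-CD3 wells. It was 1.33-fold higher in B7-2 than in anti-CD3 wells (log2 change 0.41 ± 0.09, adjusted p = 0.0142) and 1.46-fold higher in BTNL2 than in anti-CD3 wells (0.54 ± 0.09, adjusted p = 0.00333). With the mean of its probe sets these changes were 0.11 and 0.10 (adjusted p 0.396 and 0.416). Its other probe set, tested by itself, went the other way, at -0.19 and -0.34 (adjusted p 0.311 and 0.071). The call in B7-2 against anti-CD3 wells was also lost without the second B7-2 array (adjusted p = 0.0835) and without the first or second anti-CD3 array (adjusted p 0.0612 and 0.0783). Slc35b3 was lowest in the B7-2 wells, at 298.6 and 286.3, 225.0 and 204.6, and 308.3 and 347.0 in BTNL2, B7-2 and anti-CD3 wells. It was 1.52-fold lower in B7-2 than in anti-CD3 wells (-0.61 ± 0.10, adjusted p = 0.00555), and 1.36-fold higher in BTNL2 than in B7-2 wells (0.45 ± 0.10, adjusted p = 0.022). The call against B7-2 was lost without the first or second BTNL2 array (adjusted p 0.103 and 0.0601) or the second B7-2 array (adjusted p = 0.11).

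The less characterised members Slc35e3 and Slc35f2 were higher in both kinds of wells with B7-2 than in the anti-CD3 wells. Slc35e3 read 348.1 and 340.6 in the BTNL2 wells, 338.5 and 349.3 in the B7-2 wells and 228.5 and 222.1 in the anti-CD3 wells. It was 1.53-fold higher in B7-2 than in anti-CD3 wells (log2 change 0.61 ± 0.08, adjusted p = 0.00258) and by the same fold in BTNL2 wells (0.61 ± 0.08, adjusted p = 0.0016), while BTNL2 and B7-2 arrays overlapped. Slc35f2 was likewise lowest in the anti-CD3 wells, at 157.5 and 170.6, 162.8 and 169.0, and 118.7 and 106.1 in BTNL2, B7-2 and anti-CD3 wells, with changes of 1.48-fold (0.56 ± 0.10, adjusted p = 0.00658) in B7-2 and 1.46-fold (0.55 ± 0.10, adjusted p = 0.00535) in BTNL2 against anti-CD3 wells. Both genes' calls held in all 15 alternatives. Slc35a4 was 1.28-fold higher in B7-2 than in anti-CD3 wells (0.35 ± 0.09, adjusted p = 0.0321). The call was lost without any 1 array of these groups (adjusted p 0.0534 and 0.159 without the first and second B7-2 array and 0.0915 and 0.147 without the first and second anti-CD3 array), with the replicate number as a block (adjusted p = 0.0549) and with the mean of its probe sets (0.28, adjusted p = 0.058).

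Of the genes that feed or take from these carriers, chosen as 5 lists, several of glycolysis were lower with BTNL2 and about as many were not called. Of 17 measured of 20 genes of glycolysis and lactate, 0 were higher and 8 lower in BTNL2 than in B7-2 wells and 9 were not called, where 10.8% of all genes were called lower, with a median log2 change of -0.38 against -0.01 over all genes (1 higher at an unadjusted p under 0.05). In B7-2 against anti-CD3 wells 1 was higher and 4 lower (median -0.05), and in BTNL2 against anti-CD3 wells 2 were higher and 10 lower (median -0.37). Over all genes 11.2% were called higher and 13.3% lower in the former comparison, and 14.2% and 16.2% in the latter. Aldoc, the aldolase C gene, read 28.2 and 54.7 in the BTNL2 wells, 412.5 and 358.2 in the B7-2 wells and 1229.1 and 1270.5 in the anti-CD3 wells, and was 9.79-fold lower in BTNL2 than in B7-2 wells (log2 change -3.29 ± 0.27, adjusted p = 0.000277). Eno2, an enolase gene, fell 2.75-fold in the same comparison (-1.46 ± 0.11, adjusted p = 0.00015), Ldhb, a lactate dehydrogenase subunit gene, 2.07-fold (-1.05 ± 0.09, adjusted p = 0.000262) and Hk1, a hexokinase gene, 1.61-fold (-0.69 ± 0.09, adjusted p = 0.00209). The brightest genes of the list, Aldoa, Gapdh, Ldha, Pgk1, Pkm and Tpi1, named after their values were seen, were not called there. Their log2 changes were -0.38 to -0.07. In the B7-2 wells they were brighter than any gene of the list called in this comparison. Hk2, the inducible hexokinase gene, was the 1 glycolysis gene higher in B7-2 than in anti-CD3 wells, at 1664.5 and 1848.1 in the BTNL2 wells, 2671.4 and 2668.2 in the B7-2 wells and 1268.6 and 1290.0 in the anti-CD3 wells (1.06 ± 0.09, adjusted p = 0.000525).

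Partners and regulators of the glucose and lactate carriers included 1 higher and 6 lower genes of 12 in BTNL2 against B7-2 wells (median -0.23), 1 higher and 3 lower in B7-2 against anti-CD3 wells (median -0.24), and 2 higher and 6 lower in BTNL2 against anti-CD3 wells (median -0.46). Shares over all genes were 9.52% higher and 10.8% lower, 11.2% and 13.3%, and 14.2% and 16.2% in the order of these comparisons. Bsg (basigin), the chaperone that MCT1 and MCT4 need to reach the cell surface, read 616.8 and 774.1 in the BTNL2 wells, 1261.2 and 1182.7 in the B7-2 wells and 1540.4 and 1605.0 in the anti-CD3 wells. The BTNL2 arrays were lowest, by 1.77-fold against B7-2 (log2 change -0.82 ± 0.12, adjusted p = 0.00389). Emb (embigin), a related chaperone, was 2.13-fold lower in that comparison (-1.09 ± 0.10, adjusted p = 0.000369). Arrdc4, whose arrestin-like protein limits glucose uptake, was 1.99-fold lower (-0.99 ± 0.12, adjusted p = 0.00132), and its relative Txnip was 1.84-fold lower in B7-2 than in anti-CD3 wells (-0.88 ± 0.14, adjusted p = 0.00476). Tbc1d4, which restrains the movement of GLUT4 vesicles, was the 1 member of the list higher in BTNL2 than in B7-2 wells, 2.5-fold (1.32 ± 0.16, adjusted p = 0.00128).

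Among genes of nucleotide sugar synthesis, which make the cargo of the Slc35 carriers, 2 were higher and 6 lower of 17 measured of 18 in BTNL2 than in B7-2 wells (median -0.13), 2 higher and 4 lower in B7-2 than in anti-CD3 wells (median -0.02), and 5 higher and 7 lower in BTNL2 than in anti-CD3 wells (median -0.04). Shares over all genes were 9.52% higher and 10.8% lower, 11.2% and 13.3%, and 14.2% and 16.2% in the order of these comparisons. Ugp2, which makes UDP-glucose, was 1.47-fold lower in BTNL2 than in B7-2 wells (log2 change -0.56 ± 0.08, adjusted p = 0.00404), while Uap1, which completes UDP-N-acetylglucosamine, was 1.96-fold higher (0.97 ± 0.17, adjusted p = 0.00702). The PAPS synthase genes Papss1 and Papss2 were 1.56-fold and 1.79-fold lower in B7-2 than in anti-CD3 wells (-0.64 ± 0.09, adjusted p = 0.00272, and -0.84 ± 0.09, adjusted p = 0.00124).

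Genes of nucleoside salvage and adenosine numbered 14 measured of 16, with 4 higher and 1 lower in BTNL2 than in B7-2 wells (median 0.04), 4 higher and 3 lower in B7-2 than in anti-CD3 wells (median -0.03) and 4 higher and 1 lower in BTNL2 than in anti-CD3 wells (median 0.09). Shares over all genes, here and for the inositol list, were 9.52% higher and 10.8% lower, 11.2% and 13.3%, and 14.2% and 16.2% in this order. Upp1, the uridine phosphorylase gene, read 63.5 and 67.1 in the BTNL2 wells, 753.1 and 635.4 in the B7-2 wells and 861.5 and 971.9 in the anti-CD3 wells, and was 10.6-fold lower in BTNL2 than in B7-2 wells (log2 change -3.41 ± 0.12, adjusted p = 9.88e-06). The adenosine-forming ectoenzyme gene Nt5e (CD73) was lowest in the B7-2 wells, at 256.6 and 203.9, 50.9 and 46.4, and 240.5 and 228.1 in BTNL2, B7-2 and anti-CD3 wells (2.23 ± 0.13, adjusted p = 5.92e-05, in BTNL2 against B7-2 wells). Ada, the adenosine deaminase gene, rose in steps, at 279.3 and 294.1, 184.9 and 174.5, and 99.8 and 102.9 in the same order of groups (2.83-fold higher in BTNL2 than in anti-CD3 wells, adjusted p = 5.12e-05). Of 4 measured of 7 genes of inositol and osmolytes, 1 was higher and 2 lower in BTNL2 than in B7-2 wells, 2 were higher and 0 lower in B7-2 than in anti-CD3 wells, and 1 was higher and 1 lower in BTNL2 than in anti-CD3 wells, with Nfat5, the osmotic stress factor gene, 1.61-fold lower in BTNL2 than in B7-2 wells (-0.69 ± 0.09, adjusted p = 0.00187).

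**Figure D4:**
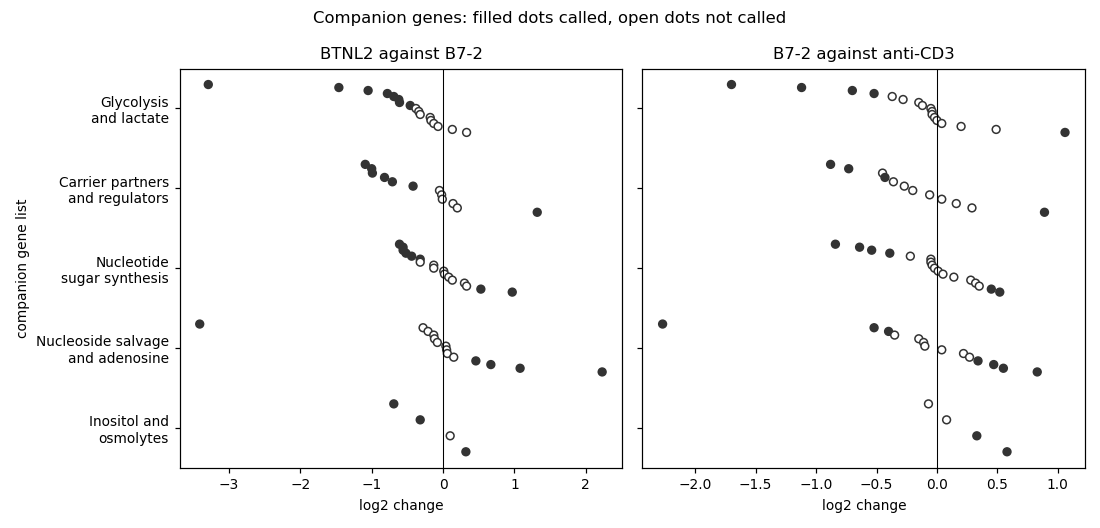
Log2 change of each measured gene of the 5 lists (rows of points) in BTNL2 against B7-2 and B7-2 against anti-CD3 wells (filled points, adjusted p under 0.05). The glycolysis and lactate list has 8 called genes, all lower, in the first panel, where Aldoc lies at -3.29, and 1 higher and 4 lower in the second.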

How the data were processed

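The values were probe set intensities on a linear scale deposited by the authors, made with RMA per the submitters' processing notes (version and chip definition: not given in the sources used here). RMA gives all arrays the same distribution, which hides shifts that most transcripts share, and it understates changes of dim genes. The design foresaw log2 values, and the intensities were log2 transformed. The 45141 probe sets held 104 controls, 28898 with 1 symbol, 551 with several and 15588 without a listed name. For 28689 of those with 1 symbol, the symbol was looked up through the Entrez identifier, whether or not it differed from the platform's. It differed for 0 of the members' probe sets. Each gene took its brightest probe set. All 6 arrays entered 1 fit per gene (R 4.3.3, limma 3.58.1, lmFit and eBayes), adjusted by Benjamini-Hochberg over 17097 genes per comparison, which was tested on simulated data. The number of arrays limits the precision. Alternatives were the variance prior, the arrays fitted, a filter on dim genes, rescaling, the probe sets, the replicate number as a block and leaving out each array. Named were 10 members followed throughout, up to 10 called rises and 10 falls per comparison whose arrays did not overlap, and up to 4 genes per list with the smallest p; a few others are marked as named after their values were seen. The members and lists were chosen with earlier results of these data known. Same-numbered arrays did not deviate together (r of -0.027 for BTNL2 and B7-2, -0.064 for B7-2 and anti-CD3 and -0.001 for BTNL2 and anti-CD3), so the numbers were not taken as pairs.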

Additional observations from a re-analysis of the deposited data

How the results depend on the processing

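Leaving out 1 array in turn leaves a group with a lone array, assumed to vary like the others, and lowered most counts. In BTNL2 against B7-2 wells 11 to 15 transporter genes were called (17 with all arrays), 4 to 7 higher and 6 to 10 lower, and 2142 to 3015 of all genes (3482). In B7-2 against anti-CD3 wells there were 12 to 23 transporter genes (23), 4 to 10 higher and 7 to 13 lower, and 2454 to 4128 of all genes (4190). In BTNL2 against anti-CD3 wells there were 16 to 26 transporter genes (28), 5 to 14 higher and 9 to 12 lower, and 3726 to 4870 of all genes (5197). No other alternative moved these counts by over 1.5 times.

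With the replicate number as a block, 16, 18 and 26 transporter genes were called in BTNL2 against B7-2, B7-2 against anti-CD3 and BTNL2 against anti-CD3 wells, and 3160, 3765 and 4827 of all genes; since the numbers do not pair the arrays, calls lost there are not read as weaker.

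Signs turned only in changes that passed no threshold. Between B7-2 and anti-CD3 wells Slc29a1 was -0.02 without the first anti-CD3 array and -0.08 without the first B7-2 array, of a range up to 0.25 without 1 array, and Slc35d1 was -0.03 without the second anti-CD3 array and -0.04 without the second B7-2 array, of a range up to 0.22. Slc5a3 in BTNL2 against B7-2 wells was -0.06 without the second B7-2 array, of a range up to 0.36. Slc2a1 in BTNL2 against anti-CD3 wells was -0.02 without the second anti-CD3 array and -0.06 without the second BTNL2 array, of a range up to 0.16. Of the named called changes, 7 of 17, 10 of 20 and 11 of 21 held in every alternative, in BTNL2 against B7-2, B7-2 against anti-CD3 and BTNL2 against anti-CD3 wells. Signal near background limits the 23 members at or below the 40th percentile of intensity, most of them in the Slc2 and Slc5 families.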
